A study of Mus musculus with 6 samples.

Results

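Zinc finger and Kruppel-like transcription factors were followed in the pancreas of mouse embryos that lack the transcription factor Sox4. Members were chosen by name, from the single gene symbol of each probe in the platform annotation. A symbol had to begin with Zfp, Klf or Zbtb and a digit, begin with Zkscan, or be 1 of the Zic genes. The rule was set with earlier results of these data known. The rule found 231 probes of 163 genes, out of 18388 probes with 1 symbol, which name 11023 genes, in a table of 21888 probes. Values allowed a test for 228 of the probes, covering 161 genes. The probes of Klf13 and Zbtb49 and 1 probe of Zfp593 had too few values.

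Pancreas from Sox4-/- embryos and from their Sox4 wild-type littermates was taken at embryonic day 12.5, and both RNAs were hybridised together on each of 6 spotted arrays. By the labels, channel 1 held the wild-type RNA and channel 2 the knockout RNA on every array, so a channel bias of a probe and the genotype cannot be told apart. Arrays 1 and 2 carry a label stating that pancreases were combined into 2 pools from which RNA was isolated and linearly amplified, so the arrays may repeat the same RNA pools. The p-values therefore measure a spread between arrays that may be technical, not one between embryos. Reading the ratio as knockout over wild type is likely rather than certain: it rests on the channel order and the titles, while neither dyes nor direction are given in the sources used here. The knockout is of the whole embryo and the pancreas was not sorted, so fewer cells of a type and less RNA per cell cannot be told apart. The targeted gene did not check the labels: the 2 probes named Sox4 had mean log2 ratios of -0.03 ± 0.25 and -0.09 ± 0.13 (SD, n = 6).

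Most genes named Zfp encode proteins with rows of C2H2 zinc fingers, small folds held by a zinc ion that read DNA bases. Many of them also carry a Kruppel-associated box (KRAB), which recruits the corepressor Trim28 and, with it, histone methylation that silences the bound DNA, often a transposable element. Zbtb proteins join zinc fingers to a BTB domain that pairs the proteins and recruits corepressors, and Zkscan proteins join them to a SCAN domain, which pairs them too, and a KRAB domain. Kruppel-like factors (Klf) have a short run of fingers that bind GC-rich and CACCC sequences and act in cell growth and differentiation, and Zic proteins act in the early nervous system and the midline. SOX factors such as Sox4 bind a short AT-rich sequence instead and bend the DNA.

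All values below are log2 ratios from the authors' deposited table, centred on the median of each array, and a probe is called where limma's Benjamini-Hochberg adjusted p over all 21247 tested probes lay under 0.05. Among the zinc finger and Kruppel-like probes, 12 of 228 were called (5.26%), beside 5.49% of all probes tested. Of these, 6 lay above 0 (2.63%, beside 1.96% of all probes) and 6 below 0 (2.63%, beside 3.53% of all probes). Without centring the members' calls were 7 above 0 (3.07%, beside 4.00% of all probes) and 4 below (1.75%, beside 1.925%). In that setting 67.5% of all calls lay above 0, beside 35.7% with centring. The share called was thus near the background in both directions. At an unadjusted p under 0.05 there were 66 member probes, or 28.9%, beside 27.6% of all probes.

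The median over the member probes was 0.037, beside 0.026 over all probes tested, and 54.4% of the members lay above 0, beside 53.7% of all probes. On the single arrays the members' median ran from -0.06 on array 5 to 0.05 on array 2. Means of at least 1 in size were found for 12 member probes (5.26%), beside 3.38% of all probes, and the members' SD between arrays was also wider, with a median of 0.326 beside 0.287. All 12 of these member means lay above 0, and so did 82.6% of the 717 means of that size over all probes. The 95% interval lay within a log2 ratio of 1 on either side of 0 for 177 of the 228 member probes (77.6%), beside 81.3% of all probes. For these a change of 2-fold or more lay outside the interval, which rests on a spread between arrays that may be technical.

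**Figure D1:**
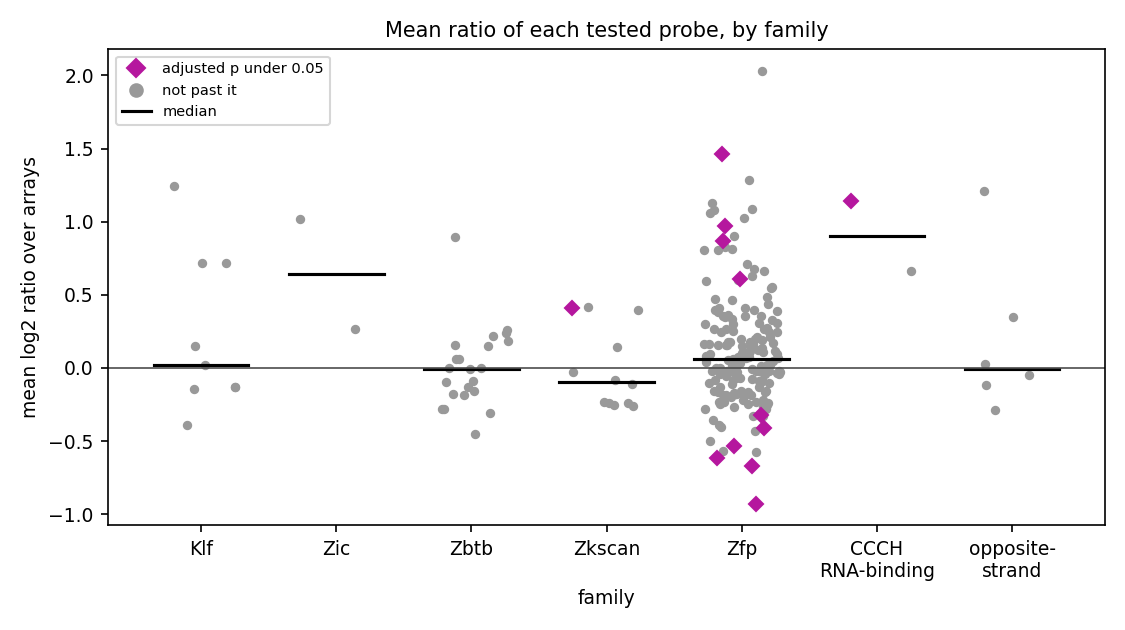
Mean log2 ratio over the arrays for each tested probe (vertical axis, median-centred, knockout over wild type as the likely direction), grouped by family on the horizontal axis, with the family median as a bar and called probes as diamonds. Called probes lie on both sides of 0 among the 175 Zfp probes, and none is seen among the Klf, Zic or Zbtb probes.

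Below 0, the likely sign of less RNA in the knockout, 6 probes of 5 genes were called: Zfp433, Zfp931 (2 probes), Zfp934, Zfp74 and Zfp185. Zfp931 was the only member gene with more than 1 called probe. Its first probe (ZX-00140N12) read -0.36, -0.77, -0.74, -0.47, -0.92 and -0.76 on arrays 1 to 6, a mean of -0.67 ± 0.21 (SD, n = 6), which is 1.59-fold, with limma's adjusted p = 0.0259. Its second probe (ZX-00130D03) read -0.40, -0.26, -0.65, -0.39, -0.65 and -0.84, a mean of -0.53 ± 0.22 (SD, n = 6), with limma's adjusted p = 0.0362. All 12 values of the gene lay below 0, and the means of both probes differed by less than the SD of either. Zfp931 is a C2H2 zinc finger gene of chromosome 2 that lies in a run of like genes.

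Zfp433, a C2H2 zinc finger gene, had the lowest mean of all member probes. It read -0.76, -1.55, -0.94, -0.46, -1.03 and -0.84 on arrays 1 to 6, a mean of -0.93 ± 0.36 (SD, n = 6), which is 1.90-fold, with limma's adjusted p = 0.0298. Array 2 was the lowest and array 4 the nearest to 0. Zfp934, on chromosome 13 like Sox4 itself, read -0.34, -0.59, -0.84, -0.42, -0.81 and -0.68, a mean of -0.61 ± 0.20 (SD, n = 6), with limma's adjusted p = 0.0297. Its arrays 1 and 4 were the nearest to 0. Zfp74 read -0.38, -0.54, -0.43, -0.22, -0.57 and -0.33, a mean of -0.41 ± 0.13 (SD, n = 6), with limma's adjusted p = 0.0363, and was again nearest to 0 on array 4.

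Zfp185 is named for a zinc finger but encodes a LIM-domain protein of the actin cytoskeleton, not a transcription factor. It read -0.39, -0.33, -0.46, -0.18, -0.33 and -0.25, a mean of -0.32 ± 0.10 (SD, n = 6), which is 1.25-fold, with limma's adjusted p = 0.0460. The call of Zfp185 ended without centring (-0.22, limma's adjusted p = 0.100) and with the array set as a term (-0.33, limma's adjusted p = 0.0563), and that of Zfp74 without centring (-0.31, limma's adjusted p = 0.0536). All 6 arrays lay below 0 for each of these probes.

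Above 0, the likely sign of more RNA in the knockout, 6 probes of 6 genes were called: Zfp558, Zfp36l1, Zfp689, Zfp955a, Zfp821 and Zkscan1. Zfp558 had the largest called mean of the family. It read 0.91, 1.02, 1.74, 0.79, 2.12 and 2.18 on arrays 1 to 6, a mean of 1.46 ± 0.63 (SD, n = 6), which is 2.75-fold, with limma's adjusted p = 0.0302. A second Zfp558 probe lay at -0.17 ± 0.29 (SD, n = 5) and was not called (limma's adjusted p = 0.425), so the probes of this gene disagreed. With 1 value per gene the mean was 0.80 and not called (limma's adjusted p = 0.0846).

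Zfp36l1 encodes a CCCH zinc finger protein that binds AU-rich elements in messenger RNA and speeds its decay, and so acts on RNA rather than on DNA. Its probe read 0.055, 0.72, 1.35, 1.52, 1.47 and 1.75, a mean of 1.14 ± 0.63 (SD, n = 6), with limma's adjusted p = 0.0430, or 0.0501 with scale normalization. Array 1 was near 0 and arrays 1 and 2 lay below the 4 others. The difference between the 2 sets of arrays had an unadjusted p of 0.00284 and an adjusted p of 0.305 in limma. Zfp36, its close relative, read 0.57, 0.48, 1.32, 0.15, 1.39 and 0.08, a mean of 0.67 ± 0.57 (SD, n = 6). Zfp36 lay above 0 on every array but was not called (limma's adjusted p = 0.0998).

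Zfp689, a C2H2 zinc finger gene, read 0.78, 0.51, 0.79, 1.10, 1.57 and 1.10, a mean of 0.97 ± 0.37 (SD, n = 6), with limma's adjusted p = 0.0287. Zfp821 read 0.55, 0.73, 0.54, 0.34, 0.80 and 0.67, a mean of 0.61 ± 0.16 (SD, n = 6), and had the lowest adjusted p of the family (limma, 0.0251). These genes had 1 probe each, and every array lay above 0.

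Zkscan1, a SCAN and KRAB zinc finger gene, read 0.36, 0.44, 0.69, 0.39, 0.37 and 0.21, a mean of 0.41 ± 0.16 (SD, n = 6), with limma's adjusted p = 0.0412. Of its 2 other probes, 1 lay at 0.40 ± 0.52 and 1 at -0.24 ± 0.21 (SD, n = 6), and neither was called. Zfp955a read 0.88, 0.91, 0.18, 1.04 and 1.32 on arrays 1, 2, 3, 4 and 6, a mean of 0.87 ± 0.42 (SD, n = 5), with limma's adjusted p = 0.0472, while its 2 other probes lay at 0.18 ± 0.25 and -0.50 ± 0.98 (SD, n = 6) and were not called. With 1 value per gene neither gene was called: Zkscan1 lay at 0.19 (limma's adjusted p = 0.193) and Zfp955a at 0.067 (limma's adjusted p = 0.882). Both calls also ended with the array set as a term, at 0.41 and 0.87 (limma's adjusted p = 0.0574 and 0.0690).

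**Figure D2:**
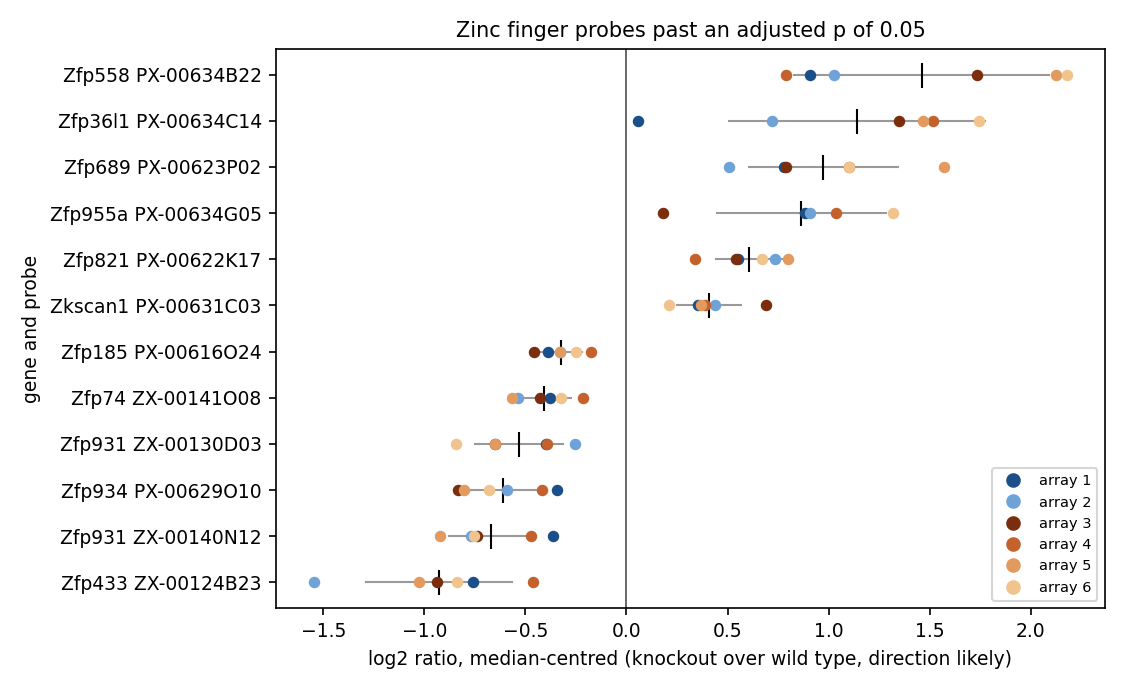
Log2 ratio of the 12 called zinc finger probes on each array (points, horizontal axis, median-centred), with the mean as a tick and 1 SD as a line; rows are genes and probes. Each called probe lies on one side of 0 on every measured array, with values from 0.79 to 2.18 for Zfp558 at the top and from -1.55 to -0.46 for Zfp433 at the bottom.

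These calls rest on all arrays together. Leaving out array 1, 3, 4, 5 or 6 left 0 of the 12 called with limma (50 to 53 member probes had an unadjusted p under 0.05). The same fits called only 8 to 32 of all 21247 probes (0.038% to 0.15%), so the loss was not particular to the members. Leaving out array 2 left 7 of the 12 and 8 member calls in all (3.51%, beside 4.00% of all probes). No mean of the 12 called member probes changed sign in these fits. For the first Zfp931 probe and Zfp821 the largest adjusted p (limma) was 0.0964.

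Signs of low signal accompanied part of the calls above 0. Intensities were not used here, but a ratio that equals a quotient of whole numbers up to 20 can come from few units of brightness, and such quotients made up 66.7% of the values of the called Zfp558 probe, 66.7% for Zfp689, 60% for Zfp955a and 50% for Zfp36l1. For Zfp821 the share was 0%, and for Zkscan1 16.7%. Below 0 it was 50% for Zfp74 and at most 16.7% for the others. In 15.8% of the member probes quotients made up over 50% of the values, beside 12% of all probes tested.

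The position on the plates moved with the calls as well. All 6 calls above 0 came from the probes whose names begin with PX, which hold 92 of the tested members and of which 2.36% were called above 0 over all genes, beside 1.51% of the ZX probes and 2.65% of the ZA probes, which hold 117 and 19 tested members. Plate PX-00634 alone holds Zfp558, Zfp36l1 and Zfp955a among its 7 tested members. On that plate 14.6% of all probes had a mean of at least 1, the largest share of 62 plates. There 2.54% were called above 0, which ranked only 22 among the 56 larger plates. Of 24 measured wells next to a called member, 8 held a called probe (33.3%), 5 of them on the same side of 0, beside 8.72% of the wells next to any called probe. Zfp433, for example, lies next to a probe of the acinar enzyme Cpa1, which read -0.50 ± 0.16 (SD, n = 6, limma's adjusted p = 0.0315). Cpa1 was also called on other plates, at -0.41 ± 0.14 and -0.48 ± 0.23 (SD, n = 6). Called neighbours of both Zfp931 probes and of Zfp74 lay on the other side of 0, at 0.59, 0.51 and 0.35. The part of signal and of plate position in these results was not tested.

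The promoters of called genes were searched for the sequence SOX factors bind and for the binding sites of Kruppel-like factors. Windows reach from 250 bases before to 50 bases after the start of the gene in RefSeq on build GRCm38.p6, and 158 windows of 137 member genes were found, with 10 of the 11 called genes among them. The 4 windows below are shown because they belong to Zfp931, the gene with both probes called, to the 2 called genes that hold a SOX match, and to Zfp821, which had the lowest adjusted p of the family. Capitals mark a SOX match, written as CAAAG or CAATG preceded by 2 bases that are each A or T, or a GC box, GGGCGG, on either strand. The windows are Zfp931 at chr2:178078376-178078675, Zfp74 at chr7:29954016-29954315 and Zfp689 at chr7:127449109-127449408, all on the minus strand, and Zfp821 at chr8:109705258-109705557 on the plus strand, each printed 5′ to 3′ along the gene.
Zfp931: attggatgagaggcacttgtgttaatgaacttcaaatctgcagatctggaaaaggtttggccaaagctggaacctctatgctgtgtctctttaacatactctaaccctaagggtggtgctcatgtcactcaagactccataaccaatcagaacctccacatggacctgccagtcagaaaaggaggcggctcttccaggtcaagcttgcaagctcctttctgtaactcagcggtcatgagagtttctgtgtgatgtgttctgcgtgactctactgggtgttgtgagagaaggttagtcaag
Zfp74: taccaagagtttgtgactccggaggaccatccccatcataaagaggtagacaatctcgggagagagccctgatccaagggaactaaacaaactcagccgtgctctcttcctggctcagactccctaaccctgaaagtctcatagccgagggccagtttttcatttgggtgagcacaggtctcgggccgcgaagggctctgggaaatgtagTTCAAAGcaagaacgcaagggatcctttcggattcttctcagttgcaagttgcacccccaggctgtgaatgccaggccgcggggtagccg
Zfp689: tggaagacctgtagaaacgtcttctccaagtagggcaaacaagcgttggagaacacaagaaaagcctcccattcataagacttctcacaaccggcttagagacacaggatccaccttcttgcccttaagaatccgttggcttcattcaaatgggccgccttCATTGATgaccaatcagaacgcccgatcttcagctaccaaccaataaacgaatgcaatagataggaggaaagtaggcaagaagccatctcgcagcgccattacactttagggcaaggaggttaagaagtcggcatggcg
Zfp821: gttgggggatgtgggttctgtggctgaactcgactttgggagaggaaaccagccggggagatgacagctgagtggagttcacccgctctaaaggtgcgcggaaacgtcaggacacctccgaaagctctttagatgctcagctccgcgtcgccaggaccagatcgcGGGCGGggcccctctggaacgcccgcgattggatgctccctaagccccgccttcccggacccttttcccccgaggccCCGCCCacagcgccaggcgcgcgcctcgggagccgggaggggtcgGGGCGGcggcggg

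Zfp931, for which both probes were called below 0, held neither the SOX match nor the GC box in its window. It did hold 2 matches of CACCC, which the capitals do not mark. Zfp74 and Zfp689, called on opposite sides of 0, held 1 SOX match each and were the only ones of the 10 genes to do so. Among all promoter windows of this length 24.6% held a SOX match, and among the members' windows 18.4%. The GC box stood in 52.5% of the members' windows, beside 35.7% of all, and in those of 5 of the 10 called genes; Zfp821 held 3 in the window shown. The letters CACCC, on either strand, stood in 65.8% of the members' windows, beside 57.5% of all. They stood in windows of 9 of the 10 called genes, beside 92 of the 137 member genes. A match describes these letters only and shows no binding.

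None of the 9 tested Kruppel-like probes, of 6 genes, was called by limma (beside 5.49% of all probes). An unadjusted p under 0.05 was found for 2 (22.2%, beside 27.6%), and the median was 0.02. The largest mean was that of Klf17, a factor known from the early embryo, which read 0.32, 0.90, 0.55, 2.08 and 2.39 on arrays 1, 2, 3, 4 and 6, a mean of 1.25 ± 0.93 (SD, n = 5). All its arrays lay above 0, but arrays 4 and 6 stood far above the other ones, and the adjusted p was 0.0938 (limma). Its array 5 held the ceiling value of the table, which was treated as missing. Klf17, like 3 of the called genes, lies on plate PX-00634.

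Klf15, which acts in amino acid and glucose metabolism, had probes that disagreed. The first read -0.34, -0.93, 0.11, -0.38, -0.36 and -0.42, a mean of -0.39 ± 0.33 (SD, n = 6; limma's adjusted p = 0.114). The second had a mean of 0.71 ± 1.18 (SD, n = 5), with 2.67 on array 3, -0.33 on array 4 and quotients for 80% of its values. Klf5, which acts in epithelial growth, had a mean of 0.72 ± 1.34 (SD, n = 5) that came from array 4 at 3.10, while the other 4 arrays lay between -0.08 and 0.32.

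Klf10, a gene induced by TGF beta, lay at -0.13 ± 0.21 (SD, n = 6), with a 95% interval from -0.35 to 0.09. Klf12, a repressor, lay at -0.13 ± 0.44 and 0.02 ± 0.24 (SD, n = 6) on its probes. Klf3, a repressor that works through Ctbp proteins, lay at -0.14 ± 0.38 (SD, n = 6) and 0.15 ± 0.98 (SD, n = 5). For the second Klf12 probe the 95% interval ran from -0.22 to 0.27. These intervals rest on a spread between arrays that may be technical, so they do not bound a change between embryos.

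**Figure D3:**
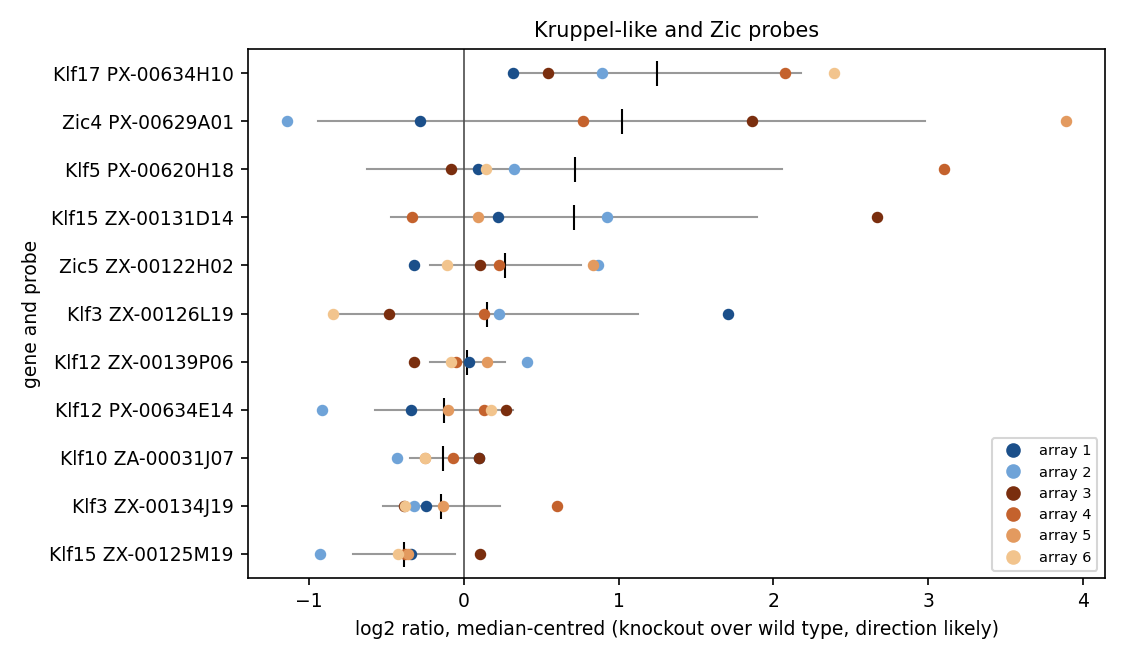
Log2 ratio of each Klf and Zic probe on each array (points, horizontal axis, median-centred), with the mean as a tick and 1 SD as a line; rows are genes and probes in order of their mean. Klf17 lies above 0 on all 5 measured arrays, whereas the means of Klf5 and of the second Klf15 probe are set by 1 array each, at 3.10 and 2.67.

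The tested Zic genes were Zic4 and Zic5, with 1 probe each. Zic4 read -0.28, -1.14, 1.86, 0.77 and 3.89 on arrays 1 to 5, a mean of 1.02 ± 1.96 (SD, n = 5). Arrays 1 and 2 lay below 0 and arrays 3 to 5 above it, and the adjusted p was 0.399 (limma). Zic5 lay at 0.27 ± 0.49 (SD, n = 6; limma's adjusted p = 0.364). The spread of both exceeded the mean.

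Among the 22 tested Zbtb probes of 15 genes, 0 were called by limma, beside 5.49% of all probes, and 5 had an unadjusted p under 0.05 (22.7%, beside 27.6%). The median was -0.005. With so few probes, a count of 0 does not set the family apart from the background. Zbtb20, a repressor of the fetal liver gene Afp in the adult liver, was measured by 4 probes, at -0.28 ± 0.34, -0.18 ± 0.30, -0.009 ± 0.16 and 0.24 ± 0.23 (SD, n = 6), and none was called. In the same RNA 3 of 4 Afp probes were called far below 0, for example at -2.05 ± 0.25 (SD, n = 6; limma's adjusted p = 0.00141). Zbtb4, which binds methylated DNA, lay at -0.45 ± 0.39 and -0.31 ± 0.24 (SD, n = 6) on its probes, with adjusted p-values of 0.112 and 0.117 in limma. Zbtb7a, a repressor of fetal globin genes, lay at -0.18 ± 0.10 and 0.16 ± 0.45 (SD, n = 6), not called. Zbtb5 had the largest mean, 0.90 ± 1.05 (SD, n = 6), with 2.89 on array 5 and 0.14 to 1.08 on the other arrays.

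The 12 Zkscan probes, of 6 genes, had a median of -0.10. The 1 call, of Zkscan1, lay above 0 (8.33%, beside 1.96% of all probes). An unadjusted p under 0.05 was found for 5 probes (41.7%, beside 27.6%). With so few probes, these counts do not set the family apart from the background. Zkscan3, known as a repressor of autophagy genes, read 0.56, 0.35, -0.14, 0.38, 0.94 and 0.40, a mean of 0.41 ± 0.35 (SD, n = 6; limma's adjusted p = 0.110). Zkscan5 lay below 0 on all arrays, at -0.24 ± 0.16 (SD, n = 6; limma's adjusted p = 0.117). The 3 probes of Zkscan14 all had means below 0, from -0.25 to -0.03, but each had arrays on both sides of 0.

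Of the 175 Zfp probes, without the families described apart, 4 were called above 0 (2.29%, beside 1.96% of all probes) and 6 below (3.43%, beside 3.53%), with a median of 0.059. These counts include Zfp185 and the other Zfp genes with no known work in transcription, except the RNA-binding Zfp36 and Zfp36l1. The largest mean of the family was not called. It was that of Zfp973, which read 0.93, 3.01, -0.14, 3.39 and 2.97 on arrays 1 to 5, a mean of 2.03 ± 1.55 (SD, n = 5; limma's adjusted p = 0.0949), and 100% of these values were quotients of small whole numbers. Zfp326, whose protein binds RNA polymerase complexes at splicing, had a mean of 1.29 ± 1.57 (SD, n = 5) that rested on array 4 at 4.02. On the other side, Zfp354b lay at -0.57 ± 0.75 (SD, n = 6) and 1 probe of Zfp444 at -0.57 ± 0.62 (SD, n = 5), neither called; the other Zfp444 probe lay on the other side of 0, at 0.25 ± 0.73 (SD, n = 4). Zfp354b read 0.52 and 0.09 on arrays 1 and 2 but -0.72 to -1.56 on arrays 3 to 6.

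Some genes of the set do no known work in transcription or are not protein genes of these families. Beside the RNA-binding Zfp36 and Zfp36l1, described above, 5 such genes that act elsewhere had 6 tested probes, already counted among the Zfp probes. Of these, that of Zfp185 was called below 0 (16.7%, beside 3.53% of all probes). Zfp207, a spindle protein, lay at -0.23 ± 0.17 (SD, n = 6; limma's adjusted p = 0.136), and Zfp622, a factor of ribosome assembly, at -0.06 ± 0.23 (SD, n = 6). The genes named as opposite strands of Zfp85, Zbtb8 and Zbtb11 had 6 probes, from -0.29 to 1.21. Of these, 0 were called by limma (beside 5.49% of all probes) and 1 had an unadjusted p under 0.05 (16.7%, beside 27.6%).

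Genes with several probes were read more than once in the same RNA. Of 48 member genes with at least 2 tested probes, 22 had all probe means on one side of 0 (45.8%), beside 46.6% of all genes measured that often. The median gap between the lowest and the highest probe mean was 0.325, beside 0.329 for all genes. Of the 11 called genes, 7 had only 1 tested probe. Among the 4 with more, Zfp931 was the one with all its probes called, and Zfp558, Zfp955a and Zkscan1 each had a probe on the other side of 0. Gaps of at least 1 were found for 6 genes, led by Zfp558 at 1.63, Zfp955a at 1.37 and Zfp706 at 1.27.

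Zfp706 read -0.25 ± 0.38 and -0.13 ± 0.24 on 2 probes and 1.02 ± 0.82 on the third (SD, n = 6). Among genes with 3 or more probes, only Zfp266, Zfp292 and Zkscan14 kept to one side of 0, which is 3 of 13, beside 30.4% of all such genes. Zfp266 lay at 0.56 ± 0.30 (SD, n = 5), 0.48 ± 0.56 and 0.02 ± 0.17 (SD, n = 6), and its first probe had an adjusted p of 0.0634 (limma). Zfp292 lay between 0.05 and 0.28. Zfp606, with 2 probes, read alike on them, at 0.41 ± 0.45 and 0.36 ± 0.27 (SD, n = 6), but neither was called. Zfp560, measured most often, had 7 probes between -0.22 and 0.44, none of them called.

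**Figure D4:**
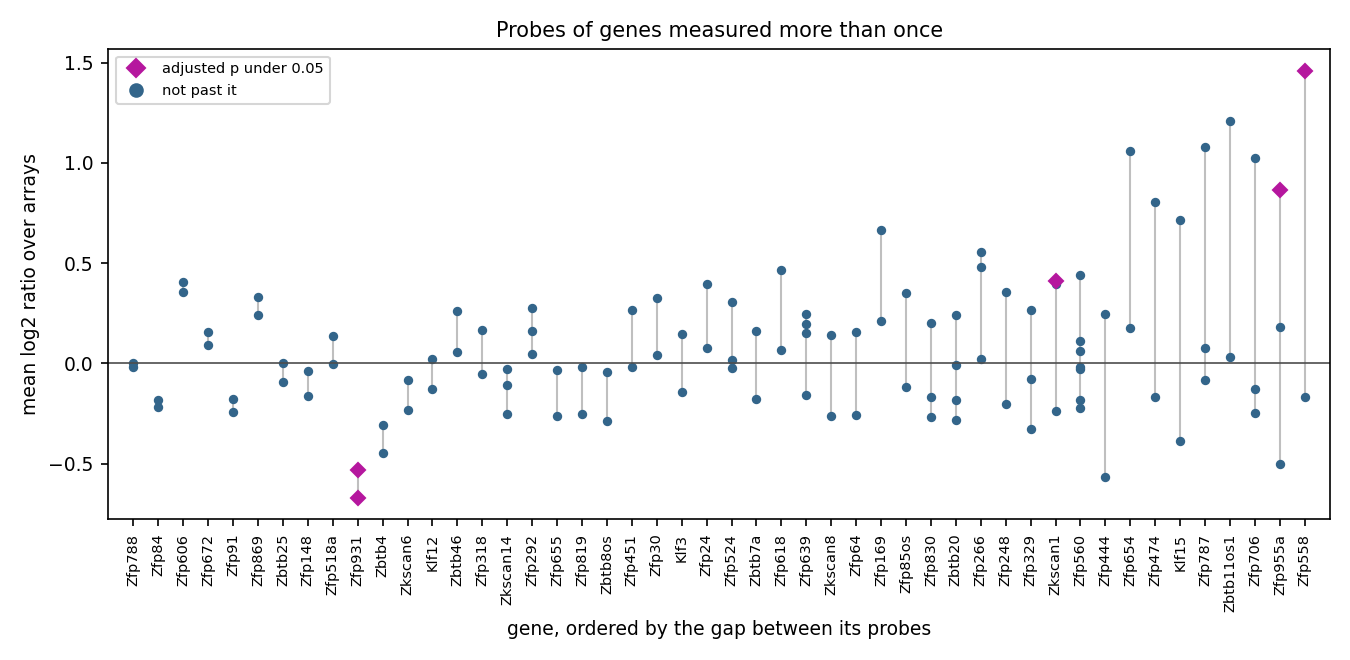
Mean log2 ratio of each probe (vertical axis, median-centred) for the 48 member genes with at least 2 tested probes, ordered from left to right by the gap between the lowest and the highest probe; diamonds are called probes. Both Zfp931 probes lie together at -0.67 and -0.53, whereas the called probes of Zfp558 and Zfp955a lie far from the other probes of their genes at the right end.

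Zinc finger genes lie in clusters, and neighbours can share sequence, so their places in the RefSeq gene order were compared. Runs of at least 3 member genes with at most 10 other genes between neighbours numbered 14 and held 55 of the 158 genes that could be placed. On chromosome 2, Zfp931 shares a run with Zfp972, at 0.41 ± 0.47 (SD, n = 6), and Zfp973, at 2.03, and neither neighbour was called. On chromosome 7, Zfp689 shares a run with Zfp553 and Zfp688 in which the means lay from 0.18 to 0.97, and only Zfp689 was called. Zfp74 shares a run with 5 other genes of chromosome 7, with probe means from -0.41 to 0.33, and again it alone was called. Runs with every probe mean below 0 were Zkscan14, Zkscan5 and Zfp655 on chromosome 5, from -0.26 to -0.03, and Zfp607b, Zfp60, Zfp626 and Zfp974 on chromosome 7, from -0.13 to -0.02.

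Chromosome 7 held 53 of the tested member probes, 41 genes, with a median of 0.04 and 1 call on each side. Chromosome 13, which carries Sox4, held 16 probes with a median of 0.06 and the single call of Zfp934. Over all probes tested, 1.96% were called above 0 and 3.53% below. Probe sequences were not used here, so reads of a near-identical neighbour by a probe were not tested.

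The arrays fell into 2 sets by their labels, 1 and 2 against 3 to 6. Over the member probes, Spearman's rho was 0.56 between arrays 1 and 2, from 0.34 to 0.58 within arrays 3 to 6 and from 0.05 to 0.34 between the sets, and all probes gave like values. These correlations are across probes of arrays that share their channels and perhaps their RNA pools, and are given as a description. A test of the difference between the sets called 0.0% of all probes and 0 of 228 members with limma, where 29 members had an unadjusted p under 0.05 (12.7%, beside 15.4% of all probes). Arrays 3 to 6 alone called 0 members (63 at an unadjusted p under 0.05), beside 11 of all probes (0.05%). Arrays 1 and 2 alone also called 0 members (41), beside 0 of all probes. With the set as a term in the fit, 9 of the 12 called members remained. The calls lost were those of Zfp185 (limma's adjusted p = 0.0563), Zkscan1 (0.0574) and Zfp955a (0.0690).

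Zinc finger regulators outside the naming rule were also looked at. Of a list of 50, including Sp, Egr, Gli, Ikzf and Sall genes, 21 genes were measured by 29 probes, with a median of -0.07 over probes and 0.01 over genes; 1 probe was called above 0 (3.45%, beside 1.96% of all probes). Bcl11a, a repressor of fetal globin genes, was the only one called: 1 probe lay at 0.84 ± 0.20 (SD, n = 5; limma's adjusted p = 0.0259) and the other at -0.48 ± 0.40 (SD, n = 6; limma's adjusted p = 0.105). Its probes therefore disagreed in sign.

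Corepressors that KRAB and BTB zinc finger proteins recruit were measured for 12 of 24 listed genes by 19 probes, and Trim28 was not among them. The median was 0.05, with 2 calls above 0 (10.5%, beside 1.96% of all probes) and 1 below (5.26%, beside 3.53%). All of these calls lay just under the threshold. Cbx5, the heterochromatin protein HP1 alpha, had 1 probe called at 0.42 ± 0.21 and 1 called at -0.43 ± 0.22 (SD, n = 6; limma's adjusted p = 0.04905 and 0.04972), with 3 more between -0.02 and 0.10. Chd3, a subunit of the NuRD remodelling complex, was called at 0.45 ± 0.24 (SD, n = 6; limma's adjusted p = 0.0499).

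Textbook targets of Kruppel-like factors were measured for 9 of 16 listed genes by 42 probes, of which 32 belong to 2 globin genes. The median was 0.05 over probes and -0.02 over genes, and 4 probes of 3 genes were called below 0 (9.52%, beside 3.53% of all probes) and 0 above (beside 1.96%), with limma; 7 had an unadjusted p under 0.05. Cdkn1a, the cell cycle inhibitor p21 and a target of Klf4, read -0.76, -0.54, -0.78, -0.72, -0.90 and -0.74 on 1 probe, a mean of -0.74 ± 0.12 (SD, n = 6; limma's adjusted p = 0.0126). Its other probe lay at -0.84 ± 0.36 (SD, n = 6; limma's adjusted p = 0.0327). S1pr1, a sphingosine phosphate receptor and target of Klf2, was called at -0.51 ± 0.17 (SD, n = 6; limma's adjusted p = 0.0316). Ccnd1, cyclin D1, was called at -0.57 ± 0.16 on 1 probe and not on another, at -0.05 ± 0.14 (SD, n = 6). Klf2 and Klf4 themselves had no member probe, so their own level was not analysed here. The list gives no expected direction for its targets, so its calls were only counted.

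Other cell types were checked by marker lists. Liver markers lay low, with 9 of 14 probes and 6 of 8 genes called below 0 and a median of -0.84 that ran from -1.01 to -0.51 over the arrays. Of the pancreatic epithelium markers 4 of 12 probes were called below 0, namely 3 of Cpa1 and 1 of the endocrine progenitor factor Neurog3. The other Neurog3 probe (-0.32) and Sox9 (-0.48) were not called. Nkx6-1, at 0.39 and 0.73, and Ptf1a, at 0.20, lay above 0 and were not called. Pdx1 lay between -0.16 and 0.10 on its probes, also not called. Erythroid markers had 1 of 54 probes called, above 0, and endothelial markers 0 of 5 (1 at an unadjusted p under 0.05). Leukocyte markers had 2 of 4 called, 1 on each side, and neuronal and neural crest markers 4 of 11, 2 on each side. Mesenchymal markers had 1 of 9 called, below 0. Over all probes tested, 3.53% were called below 0 and 1.96% above. The table holds ratios, so the presence of a cell type cannot be read from it, and the part of cell composition in the zinc finger calls was not tested.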

How the data were processed

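The authors deposited 1 table of log2 ratios, 1 column per array; the log2 base follows from its ceiling value, 16.61, which is log2 of 1e+05. Per the labels, RNA was amplified linearly and labelled indirectly. The sources used here do not give the scanner, the dyes, any normalization or the direction. Intensities were not used here, so signal over background is unknown and the number of arrays limits the precision.

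Ceiling values were set to missing (10 values on 9 member probes), the median of each array was subtracted, and a probe needed values on 4 of the 6 arrays. An intercept-only model was fitted per probe with limma 3.58.1 (R 4.3.3) and tested two-sided by eBayes; p-values were adjusted by Benjamini-Hochberg over all 21247 tested probes, with a threshold of 0.05. The fit was tested on simulated data with known changes. Gene names are those of the platform annotation; 230 member probes matched RefSeq by Entrez ID, with no differing symbol. Probes of a gene were reported apart. Promoter sequences are from RefSeq (GRCm38.p6). Figures were drawn with matplotlib 3.10.9.

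Named genes were every called member and all probes of its gene, all Klf and Zic probes, genes with 3 or more probes on one side of 0, and the 6 largest means on each side; others (Zfp36, the Zbtb and Zkscan genes, Zfp207, Zfp560, Zfp606, Zfp622, Zfp706 and the outside genes) were chosen after their values were seen. Members and lists were chosen with earlier results of these data known.

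The alternatives tried were uncentred values, scale and quantile normalization, other limits on missing values, the ceiling kept, array weights, robust eBayes, 1 value per gene, the array set as a term or alone, no mostly quotient probes, current symbols, and each array left out.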

Additional observations from a re-analysis of the deposited data

Results flagged for a closer look

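Of 43 series of array values examined, those of 42 named probes and of the members' median, 6 had 1 array far from the others, and chance gives about 1 in 20. Klf5 stood at 3.10 on array 4, with the other arrays between -0.08 and 0.32. Zfp326 stood at 4.02 on array 4, with the others between 0.11 and 1.10. Zfp266, on its second probe, stood at 1.57 on array 5, with the others between 0.05 and 0.45. Klf3, on 1 of its probes, stood at 0.60 on array 4, with the others between -0.38 and -0.14. For Zkscan14, 1 probe stood at -1.73 on array 6, with the others between -0.07 and 0.20, and another stood at -0.44 on array 2, with the others between -0.12 and 0.07. None of these probes was called by limma at an adjusted p of 0.05, so no call rests on them. Array 4 was the far one in 3 of the 6.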

How the results depend on the processing

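The count of all called probes, 1166, became 1786 with scale normalization, 2402 with array weights, 600 with 1 value per gene, 695 with the array set as a term, 11 on arrays 3 to 6 alone and 0 on arrays 1 and 2 alone (limma; 2960 at an unadjusted p under 0.05), and ranged from 8 to 849 with 1 array left out, the highest without array 2. The members' calls above 0, 6 (2.63%, beside 1.96% of all probes), became 3 with 1 value per gene (1.86%, beside 1.54% of all tested in that fit). They became 0 on arrays 3 to 6 alone (beside 0.0047% of all probes) and 0 on arrays 1 and 2 alone (beside 0%). With 1 array left out they ranged from 0 to 4, the highest without array 2 (1.75%, beside 1.27%). Their calls below 0, 6 (2.63%, beside 3.53%), became 0 on either set alone (beside 0.047% on arrays 3 to 6 and 0% on arrays 1 and 2). With 1 array left out these ranged from 0 to 4, the highest without array 2 (1.75%, beside 2.73%). The members' median, 0.037, became 0.133 without centring, where the median of all probes moved to 0.129, and -0.0049 with values on all 6 arrays required, and the called member probes kept their sign under these alternatives but not their size or call. Over the alternatives the Zfp955a mean ran from 0.067 to 1.04 and was called in 5 of 18, Zkscan1 from 0.19 to 0.51 (10 of 20), Zfp185 from -0.36 to -0.22 (10 of 20), Zfp558 from 0.80 to 1.71 (11 of 19), Zfp36l1 from 0.39 to 1.52 (11 of 20) and Zfp74 from -0.46 to -0.31 (11 of 20); the others were called in 12 of 19 or 13 of 20. Among uncalled named probes, Zfp266 was called with array weights (0.57), without mostly quotient probes (0.56) and without array 2 (0.67), and Klf17 with array weights (1.54). Each log2 ratio already pairs both RNAs of 1 array, so the fit against 0 uses that pairing. The arrays form 1 group, and no further pairing was made. Signal over background is unknown here, and 6 arrays limit the precision.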
